A study of Mus musculus with 4 samples.

Results

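The genes described here are 10 genes of antigen presentation by the major histocompatibility complex (MHC), taken with every one of their exons listed in an exon-level RNA-seq table of mouse embryonic fibroblasts (MEFs). They comprise the class II chains H2-Aa, H2-Ab1 and H2-Eb1, the invariant chain Cd74, the class II transactivator Ciita, the class I heavy chains H2-K1 and H2-D1, the class I light chain B2m, the peptide transporter subunit Tap1 and the loading chaperone Tapbp. These 10 genes held 101 of the 226463 exons that were matched to 22835 annotated genes. They were chosen by function, with earlier results of these data known.

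Each condition had 1 library, so no difference below carries a test or a p-value, and a library's spread from culture to culture is not known. MEF stands for wild-type fibroblasts at passage 3 and Dox (-) for Mitf knock-in fibroblasts at passage 5 without doxycycline. Dox (+) stands for Mitf knock-in fibroblasts at passage 5 after 6 days of doxycycline. Both knock-in cultures carry the reverse transactivator M2rtTA at ROSA26 and the M isoform of Mitf under a TetO promoter at Col1a1. They came from 1 correctly targeted embryonic stem cell clone by way of chimeric embryos made with BDF2 host blastocysts. The targeted cells also carry a constitutive mCherry transgene. The study states that mCherry and puromycin resistance let transgenic cells be purified out of chimeric material. Whether this was done for the sequenced cultures is not stated in the sources used here, so the cultures may include host cells. The strain of the wild-type MEFs is not given in the sources used here. Mitf, the induced gene and the master transcription factor of melanocytes, stood at 1.52 RPKM in MEF, 30.8 in Dox (-) and 1544 in Dox (+), in the order of the labels.

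MHC class II molecules are pairs of an alpha and a beta chain that display peptides from endocytosed proteins to CD4+ T cells. The invariant chain Cd74 escorts them to the endosome, and the coactivator Ciita switches on their genes, mainly in dendritic cells, B cells and macrophages. MHC class I molecules are carried by nearly all nucleated cells and display peptides of cytosolic proteins, which the proteasome cuts, the Tap transporter carries into the endoplasmic reticulum and tapasin (Tapbp) helps to load. Interferon raises the genes of both classes in many cell types, fibroblasts included.

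The RPKM of an exon is the number of reads touching it, scaled to its length in kilobases and to the reads of the library, and following the study each gene was given the value of its top exon as its level. The RPKM scale put the depth at 45000000 reads in MEF, 45000000 in Dox (-) and 44000000 in Dox (+). Short exons therefore set most levels, because a read that touches a short exon mostly covers its neighbours too. The level of both H2-Ab1 in Dox (+) and H2-Eb1 in Dox (-) was read from an exon of 24 bases that encodes part of the cytoplasmic tail. The pair is shown because both class II levels above 10 RPKM were read from it. Capitals mark the bases at which the 2 exons differ, on GRCm38 with GENCODE M21 exons, at chr17:34268461-34268484 for H2-Ab1 and chr17:34315556-34315579 for H2-Eb1, both on the plus strand.
H2-Ab1 exon 5: gacCTCGAggCcCtcCTccaGcag
H2-Eb1 exon 5: gacAGTCTggAcTtcAGccaAcag
The 2 exons were identical at 14 of 24 positions (58.3%).

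The class I heavy chains are far closer to each other than that, which bears on how reads can be assigned. Exon 2 encodes the alpha1 domain, a wall of the peptide groove, and exon 4 encodes the alpha3 domain, which contacts CD8 and the light chain. They are shown as the exon on which the libraries differed in coverage and the exon most widely shared within the family, with the bases that differ between the genes in capitals. Exon 2 lies at chr17:33999734-34000003 (minus strand) in H2-K1 and at chr17:35263379-35263648 (plus strand) in H2-D1. Exon 4 lies at chr17:33997285-33997560 and chr17:35265784-35266059, respectively, again on GRCm38.
H2-K1 exon 2: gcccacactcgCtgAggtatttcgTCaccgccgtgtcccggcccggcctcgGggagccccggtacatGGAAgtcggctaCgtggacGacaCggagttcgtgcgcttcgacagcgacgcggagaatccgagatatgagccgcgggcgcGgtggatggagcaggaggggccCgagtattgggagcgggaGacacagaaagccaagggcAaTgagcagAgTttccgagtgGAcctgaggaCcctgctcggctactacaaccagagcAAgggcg
H2-D1 exon 2: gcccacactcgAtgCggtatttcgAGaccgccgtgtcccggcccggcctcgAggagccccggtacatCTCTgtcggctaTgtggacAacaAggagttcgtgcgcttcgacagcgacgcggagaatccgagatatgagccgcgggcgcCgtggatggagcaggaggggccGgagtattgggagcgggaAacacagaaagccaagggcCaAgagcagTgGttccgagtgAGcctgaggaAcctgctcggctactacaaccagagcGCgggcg
H2-K1 exon 4: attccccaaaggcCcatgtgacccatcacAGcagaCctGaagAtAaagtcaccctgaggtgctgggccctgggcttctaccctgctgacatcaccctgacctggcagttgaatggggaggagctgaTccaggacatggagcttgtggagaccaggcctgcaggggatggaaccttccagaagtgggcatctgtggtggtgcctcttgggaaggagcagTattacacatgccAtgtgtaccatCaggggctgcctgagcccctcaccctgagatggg
H2-D1 exon 4: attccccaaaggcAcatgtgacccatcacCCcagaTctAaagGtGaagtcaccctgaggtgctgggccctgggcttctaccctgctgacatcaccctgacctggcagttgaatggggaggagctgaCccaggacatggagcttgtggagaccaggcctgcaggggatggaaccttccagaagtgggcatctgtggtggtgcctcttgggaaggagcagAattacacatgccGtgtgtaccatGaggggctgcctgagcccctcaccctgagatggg
Exon 2 differed at 24 of 270 positions (91.1% identity) and exon 4 at 11 of 276 (96.0% identity). Exon 3, for the alpha2 domain, differed at 33 of 276 positions (88.0%). The 33 bases of exon 6 were identical in both genes.

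A window of 50 bases shows where a read could come from more than 1 gene. In H2-D1, 53.6% of such windows centred on exon 4 occurred in another annotated gene, against 13.0% on exon 2, 21.0% on exon 3 and 0 of 39 on exon 7. In H2-K1 the shares were 29.7% on exon 4, 4.07% on exon 2, 8.70% on exon 3 and 0 of 39 on exon 7. The windows of exon 4 were shared with 24 other genes, among them H2-Q4, H2-Q7 and H2-T22, so reads on this exon are uncertain as to their gene. Exon 7, which encodes a piece of the cytoplasmic tail, had no shared window in either gene and carried many reads, and its bases are given for that reason (chr17:33996616-33996654, minus strand, in H2-K1 and chr17:35266688-35266726, plus strand, in H2-D1).
H2-K1 exon 7: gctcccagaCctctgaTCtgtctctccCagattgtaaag
H2-D1 exon 7: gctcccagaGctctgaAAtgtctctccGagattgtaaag

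The levels of the 10 genes spanned the whole range of the table and split by class. All 5 class I genes exceeded 10 RPKM in every library, from 28.7 RPKM for Tap1 in MEF to 9204 RPKM for B2m in MEF. No class II chain, Cd74 or Ciita exceeded 2 RPKM in MEF, and only H2-Ab1 in Dox (+) and H2-Eb1 in Dox (-) rose above 10 RPKM in any library. B2m ranked 33rd of 22835 genes in MEF, 33rd in Dox (-) and 42nd in Dox (+).

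**Figure D1:**
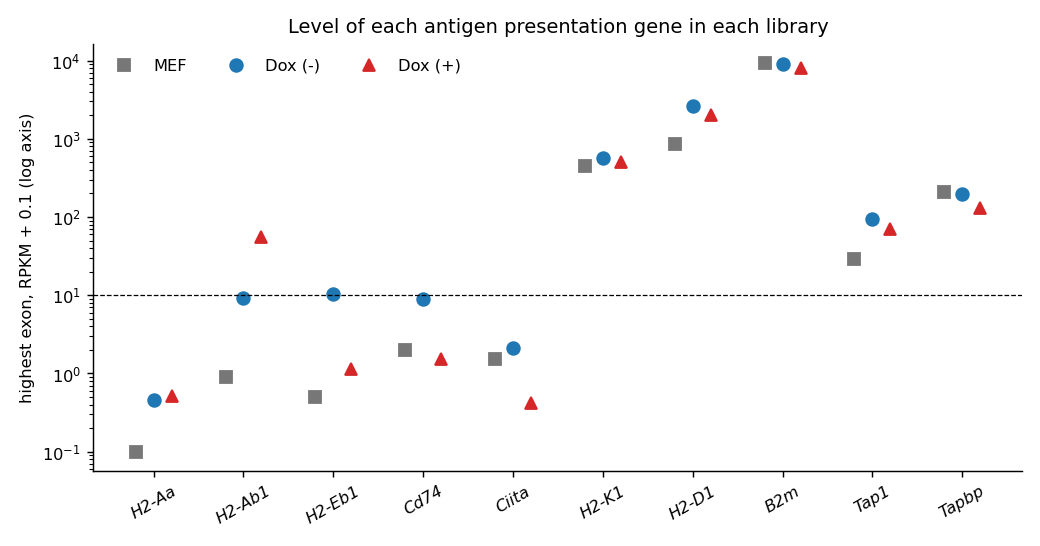
Level of each of the 10 genes (highest exon, RPKM + 0.1 on a log axis) in MEF (squares), Dox (-) (circles) and Dox (+) (triangles), 1 library each, with a dashed line at 10 RPKM. The class I genes lie above the line in all libraries, whereas H2-Ab1 reaches 54.9 RPKM in Dox (+) only and H2-Eb1 reaches 10.2 RPKM in Dox (-) only.

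The comparison of Dox (+) with Dox (-) sets a knock-in culture with the transgene induced beside one without doxycycline. Induction, doxycycline itself and other differences between the cultures, such as their mix of cells, cannot be told apart in it. Among the class II genes, H2-Ab1 was higher in Dox (+), while H2-Eb1 and Cd74 were lower, so the chains of this pathway did not move together. A gene was called different when either of its levels passed 10 RPKM and they differed by more than 4-fold. Of the 7 members above 10 RPKM, 1 was called higher (H2-Ab1) and 1 lower (H2-Eb1). Over all 13307 genes above 10 RPKM, 1.64% were called higher and 5.41% lower by the same rule. The median log2 fold change of those genes was 0.23 towards Dox (+), on the log2(RPKM + 1) scale used throughout, so values near 0.23 lie at the middle of the transcriptome.

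H2-Ab1, the beta chain of the I-A molecule, stood at 0.801 RPKM in MEF, 9.26 in Dox (-) and 54.9 in Dox (+). The libraries were thus fully ordered, with Dox (+) highest. On exon 5, the 24-base exon shown above, Dox (+) had 58 reads and Dox (-) had 10, a ratio of 5.93 (95% counting interval 3.01 to 13.0). All intervals here cover counting error only, since reads without molecular identifiers are not independent molecules. The same direction held on each of the 6 exons, with ratios from 1.64 to 7.36 and an interval above 1 on 6 of 6. On exon 3, which encodes the beta2 domain, 223 reads stood against 31, a ratio of 7.36 (5.04 to 11.1). Over all exons together the density was 0.275 RPKM in MEF, 2.51 in Dox (-) and 12.6 in Dox (+).

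H2-Eb1, the beta chain of the I-E molecule, stood at 0.394 RPKM in MEF, 10.2 in Dox (-) and 1.05 in Dox (+). Only Dox (-) stood apart, and the call rests on exon 5 with 11 reads in Dox (-) and 1 in Dox (+), a ratio of 10.8 (1.56 to 463) whose interval reaches below 4. The 326-base last exon gave 26 reads against 2, while exon 3 gave 19 against 13, a ratio of 1.43 whose interval includes 1. H2-Eb1 was lower on all 4 of its exons that had more than 3 reads in either library. Over all exons its density was 3.20-fold lower in Dox (+), and by that measure it did not reach 10 RPKM and was not called.

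H2-Aa, the alpha chain that pairs with H2-Ab1, was almost absent from the table. It had no reads in MEF, at most 4 reads on an exon in Dox (-) and at most 2 in Dox (+), and its level was 0.357 RPKM in Dox (-) and 0.413 in Dox (+). Its partner H2-Ab1 thus had 58 reads on an exon of 24 bases in Dox (+), where H2-Aa had 2 on an exon of 110 bases. A difference in H2-Aa between the libraries was not detectable at this depth.

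Cd74, the invariant chain and peptide chaperone, stood at 1.91 RPKM in MEF, 8.82 in Dox (-) and 1.42 in Dox (+). It did not pass 10 RPKM in any library, so it was neither tested nor called. Its 12 listed exons were all lower in Dox (+) than in Dox (-), each with an interval that excluded 1. Some of these are overlapping variants of an exon that count the same reads. The same holds for Tap1, Tapbp and H2-D1 below, so their exon counts are not counts of separate positions. On its exon 5, Dox (-) had 31 reads and Dox (+) had 2. Over all exons the density was 0.867 RPKM in MEF, 3.77 in Dox (-) and 0.322 in Dox (+), an 11.7-fold difference between the knock-in libraries. The microRNA gene Mir5107 overlaps the start of exon 9 of Cd74, so reads touching both could belong to either.

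Ciita, the coactivator that class II genes require, had at most 4 reads on an exon in MEF, 6 in Dox (-) and 1 in Dox (+). Of its 14 listed exons, 11 had no reads in MEF, 8 in Dox (-) and 12 in Dox (+). In Dox (+), where H2-Ab1 was highest, 2 reads were found on the listed exons of Ciita in all. Ciita is transcribed from alternative promoters with first exons used in different cell types, but 0 of its 8 annotated first exons are among the listed exons, so promoter use could not be read. Exons 4 and 5 overlap the antisense gene Dexi, and the counting is not stated to use strand.

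**Figure D2:**
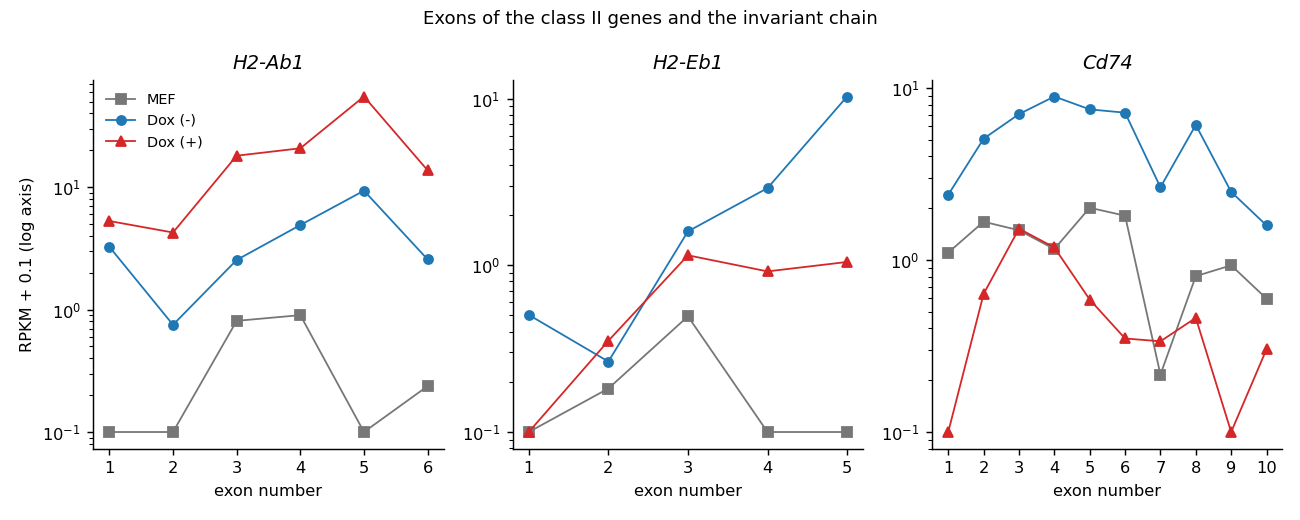
RPKM + 0.1 (log axis) of each listed exon of the main transcript of H2-Ab1, H2-Eb1 and Cd74, by exon number, in MEF (squares), Dox (-) (circles) and Dox (+) (triangles). Dox (+) lies above Dox (-) on all 6 exons of H2-Ab1 and below it on every plotted exon of Cd74, and on exons 4 and 5 of H2-Eb1 it lies below Dox (-).

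The class II pathway outside these genes was described from lists of H2-DM and H2-O subunits, endosomal proteases and promoter-binding factors. Together with the lists for class I below, 46 of 49 such genes had a value. In Dox (+) against Dox (-), 0 of the 42 above 10 RPKM were called higher and 1 was called lower, beside 1.64% and 5.41% over all genes. Their median log2 fold change was -0.26, against 0.23 over all genes above 10 RPKM. The lower gene was Ctss, the lysosomal protease that trims the invariant chain, at 3.67 RPKM in MEF, 494 in Dox (-) and 12.6 in Dox (+). It thus followed the same order as H2-Eb1 and not that of H2-Ab1.

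The editors of class II peptide loading, H2-DMa, H2-DMb1 and H2-DMb2, stayed together. H2-DMa stood at 9.65 RPKM in MEF, 31.0 in Dox (-) and 27.8 in Dox (+). All 3 lay within 1.17-fold between the knock-in libraries and between 2.58-fold and 3.21-fold higher in Dox (-) than in MEF, under the 4-fold rule. Reads of the near-identical pair H2-DMb1 and H2-DMb2 may be split between them. H2-Oa and H2-Ob, which restrain H2-DM in B cells, did not exceed 0.163 RPKM in any library. March1, a ubiquitin ligase that removes class II molecules from the surface, stood at 0.137 RPKM in MEF, 6.11 in Dox (-) and 0.377 in Dox (+), below the level for a call.

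The factors that bind class II promoters were above 10 RPKM in every library, unlike Ciita. None of the 7 (Rfx5, Rfxap, Rfxank, Nfya, Nfyb, Nfyc and Creb1) was called in any comparison. Rfx5, the DNA-binding subunit of the RFX complex, stood at 35.9 RPKM in MEF, 43.1 in Dox (-) and 16.9 in Dox (+). The part of Rfx5 or Ciita in the level of H2-Ab1 was not tested.

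In the class I genes, Dox (+) and Dox (-) differed by far less than 4-fold, and 0 of 5 were called. The log2 fold changes were -0.15 for H2-K1, -0.38 for H2-D1, -0.14 for B2m, -0.39 for Tap1 and -0.61 for Tapbp. After rescaling the libraries to a common median ratio they were -0.38, -0.61, -0.37, -0.62 and -0.84. All 5 thus lay below the median of all genes by either scale. From reads summed over all exons, H2-K1 was instead higher in Dox (+) (log2 fold change 0.35) and H2-D1 was near 0 (0.017), so the direction of both depends on the exons used.

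Tap1, a subunit of the peptide transporter, stood at 28.7 RPKM in MEF, 93.1 in Dox (-) and 70.9 in Dox (+). It was lower in Dox (+) than in Dox (-) on 17 of its 18 exons, 14 of them with an interval below 1, and the last exon had 231 reads in Dox (+) against 579 in Dox (-), a 2.45-fold difference (2.10 to 2.87). Tapbp, tapasin, stood at 211 RPKM in MEF, 199 in Dox (-) and 130 in Dox (+), and was lower in Dox (+) on 5 of 10 exons, all 5 with an interval below 1, and higher on the other 5, of which 0 had an interval above 1. The early exons of Tapbp overlap the antisense genes Gm19412 and Zbtb22, and the longest first exon of Tap1 overlaps Psmb9.

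H2-K1 and H2-D1 differed between the knock-in libraries in the part of the transcript that carried the reads. H2-K1 stood at 455 RPKM in MEF, 565 in Dox (-) and 511 in Dox (+), and H2-D1 at 865, 2631 and 2017 RPKM. On exon 7 of H2-D1, Dox (+) had 3461 reads against 4618, a ratio of 0.766. On exons 2 and 3 together, which encode the peptide groove, Dox (+) had 3878 reads against 1403, a ratio of 2.83 (2.66 to 3.01). The same gene was thus lower in Dox (+) by its 3′ exons and higher by its 5′ exons.

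Set against exon 4 of the same library, the read density of exons 2 and 3 of H2-D1 was 15.9% in MEF, 19.7% in Dox (-) and 50.1% in Dox (+). For H2-K1 it was 35.9% in MEF, 59.3% in Dox (-) and 70.5% in Dox (+). Against exon 4, which is widely shared within the family, Dox (+) was highest and MEF lowest in both genes. On exon 7 of H2-D1, with no shared window, Dox (-) was 3.42-fold above MEF, against 2.35-fold on exons 2 and 3. Set against exon 7, exons 2 and 3 of H2-D1 were therefore lower in Dox (-) than in MEF, and Dox (+) remained highest. The reference genome is that of C57BL/6J, and exons 2 and 3 are the most variable between mouse strains; the part of strain alleles in these ratios was not tested. Exon 1 carried almost nothing, with 0 reads in MEF, 1 in Dox (-) and 3 in Dox (+) for H2-K1.

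**Figure D3:**
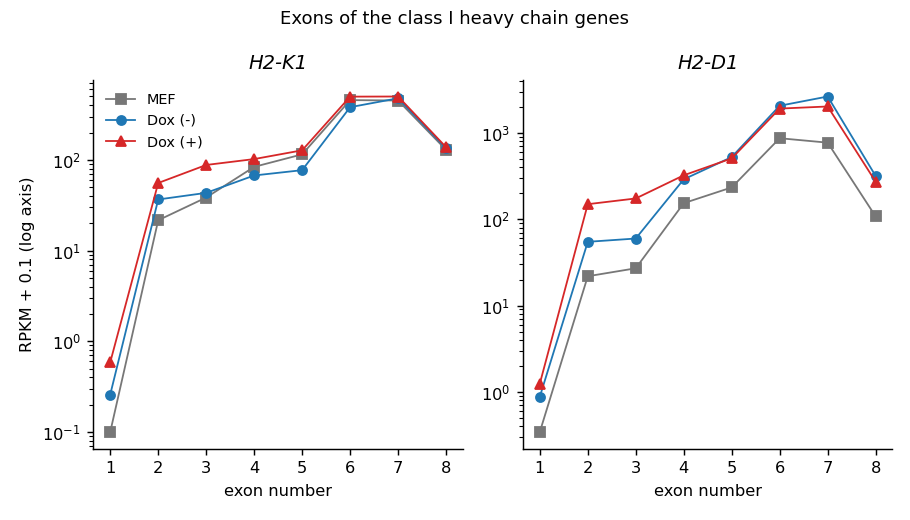
RPKM + 0.1 (log axis) of each exon of the main transcript of H2-K1 and H2-D1 by exon number, in MEF (squares), Dox (-) (circles) and Dox (+) (triangles). The libraries converge on exon 8 of H2-K1, and on exons 2 and 3 of H2-D1 Dox (+) lies 2.83-fold above Dox (-) while it lies below it on exon 7.

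A shift of reads towards 5′ exons was general. For each gene the change over the first exons was compared with that over the last exons, taking an equal number of each and at least 50 reads on both in both libraries. In Dox (+) against Dox (-) the median difference over 9790 genes was 0.24 on the log2 scale, and 86.2% of genes were above 0. Tapbp (0.92, percentile 98.1 of all genes), H2-D1 (0.89, percentile 97.8) and Tap1 (0.74, percentile 95.8) lay in the upper tail. H2-K1 followed at 0.57 (percentile 90.6), whereas B2m lay at 0.16 (percentile 35.0) and H2-Ab1 at -0.09 (percentile 7.55). The summed reads of H2-Ab1 thus rose by near equal amounts over its first and last exons (log2 2.28 and 2.37). Its exon 1 alone rose less, with a ratio of 1.64 (1.003 to 2.74), than its exon 6, at 5.54 (3.87 to 8.14). Single-exon folds of Tapbp, H2-D1 and Tap1 also depended on the exon. In Dox (-) against MEF, H2-D1 lay at -0.49 (percentile 2.65) and Tap1 at -0.12 (percentile 12.9), and Tapbp at 0.82 (percentile 93.6). In Dox (+) against MEF, H2-D1 was at percentile 45.0 and Tap1 at 67.0, with Tapbp at 98.8. The upper-tail place of H2-D1 and Tap1 was thus found only against Dox (-). RNA integrity values were not used here, and their part in the shift was not tested.

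**Figure D4:**
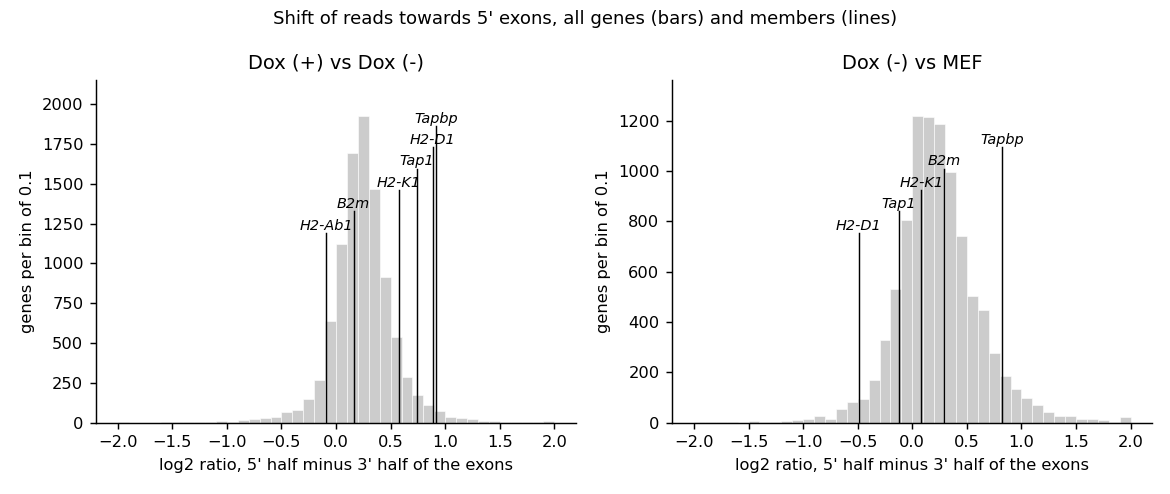
Number of genes (bars, bins of 0.1) by the log2 fold change of their 5′ exons minus that of their 3′ exons, for Dox (+) against Dox (-) and for Dox (-) against MEF, with members as labelled lines. Most genes lie right of 0, and Tapbp lies in the right tail of both panels. H2-D1 lies in the right tail for Dox (+) against Dox (-) and in the left tail for Dox (-) against MEF.

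None of the other class I genes was called in Dox (+) against Dox (-). The 6 loading and trimming genes (Tap2, Tapbpl, Erap1, Pdia3, Calr and Canx) were all lower in Dox (+) than in Dox (-), with log2 fold changes from -1.24 to -0.27 and none called. Erap1, which trims peptides in the endoplasmic reticulum, stood at 72.1 RPKM in MEF, 63.6 in Dox (-) and 26.4 in Dox (+). Psmb8, an inducible catalytic subunit of the immunoproteasome, stood at 21.0, 61.2 and 24.9 RPKM, so only Dox (-) was raised. Its ratio to the constitutive subunit it replaces, Psmb5, was 0.116 in MEF, 0.415 in Dox (-) and 0.107 in Dox (+). Nlrc5, the class I counterpart of Ciita, stayed between 6.45 and 8.66 RPKM in all libraries.

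Dox (-) against MEF compares the uninduced knock-in culture with the wild-type culture, so genotype, origin and passage cannot be told apart in it. The library labelled MEF does not hold the values that the supplement of the study lists for MEF, so these results describe that library. Here H2-Ab1, H2-Eb1 and Cd74 were higher in Dox (-), as were H2-D1 and Tap1 among the class I members, whereas H2-K1, B2m and Tapbp stayed close to the median of all genes. Of 6 members above 10 RPKM, 1 was called higher (H2-Eb1) and 0 lower, beside 8.26% higher and 1.21% lower over all 13234 genes. H2-Eb1 had 11 reads on exon 5 in Dox (-) and none in MEF, which makes it at least 3.67-fold higher with a floor of 3 reads. H2-Ab1 and Cd74 were also higher, with 10 reads against 0 on exon 5 of H2-Ab1 (at least 3.33-fold) and 12 of 12 exons higher for Cd74, but neither passed 10 RPKM.

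Tap1 was higher in Dox (-) than in MEF on 18 of 18 exons, with ratios from 2.33 to 3.74. H2-D1 was higher on 11 of 11 exons, from 1.89 to 3.46, and its log2 fold change was 1.60 against a median of 0.014 over all genes above 10 RPKM. The log2 fold change was 0.31 for H2-K1, -0.04 for B2m and -0.08 for Tapbp. H2-D1 was 1.90-fold above H2-K1 in MEF and 4.65-fold above it in Dox (-), by the highest exon per length of each, and 1.18-fold and 3.10-fold by reads summed over exons. The highest exon of both genes in MEF was exon 6, whose bases they share. On exon 7, with no window shared with another gene, H2-K1 had 791 reads in MEF and 837 in Dox (-), whereas H2-D1 had 1349 and 4618.

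The nonclassical class I genes of the Q region held most of the calls in the same comparison. Of the 41 pathway genes above 10 RPKM, 8 were called higher in Dox (-) and 0 lower, beside 8.26% and 1.21% over all genes. They were Ctss, the protease Ctsb, and the heavy chain genes H2-Q1, H2-Q2, H2-Q4, H2-Q6, H2-Q7 and H2-Q10. H2-Q7, a Qa-2 gene, stood at 100.3 RPKM in MEF, 956 in Dox (-) and 615 in Dox (+). The T and M region genes did not follow, with H2-T22 at 772, 867 and 826 RPKM and H2-M3 at 70.7, 48.5 and 37.2 RPKM. The Q genes share long stretches of sequence with each other, so their separate values are uncertain and the 6 calls are not independent.

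In Dox (+) against MEF, 1 of 6 members above 10 RPKM was called higher (H2-Ab1) and 0 lower, beside 6.55% higher and 3.4% lower over all 12941 genes. After rescaling, the numbers of all genes called in this comparison moved from 848 higher and 440 lower to 647 and 555, and the median shift of 0.27 was removed. H2-Ab1 had 58 reads on exon 5 in Dox (+) and none in MEF, at least 19.8-fold with a floor of 3 reads, and was higher on 6 of 6 exons. H2-D1 was higher on 11 of 11 exons and Tap1 on 18 of 18, while Tapbp was lower by 1.62-fold at its highest exon. Of 40 pathway genes above 10 RPKM, 4 were called higher (H2-Q4, H2-Q6, H2-Q7 and H2-Q10) and 0 lower. This comparison shares its libraries with those above and adds no independent evidence to them.

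Genes of cells that carry class II molecules were measured beside these results. All 10 macrophage markers were called higher in Dox (-) than in MEF, beside 8.26% over all genes. All 10 were also called lower in Dox (+) than in Dox (-), beside 5.41% over all genes. Their summed level was 54.2 RPKM in MEF, 15132 in Dox (-) and 544 in Dox (+). Lyz2, lysozyme, stood at 27.8, 10820 and 379 RPKM, and Csf1r, the receptor for the macrophage growth factor, at 8.10, 342 and 11.0 RPKM. H2-Eb1, Cd74, Ctss and March1 were likewise highest in Dox (-), and H2-Ab1 was not. Fewer cells of a type and less RNA per cell cannot be told apart in bulk RNA, and the part of macrophages in these values was not tested.

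The B cell markers Ms4a1, Cd79a, Cd79b and Pax5 did not exceed 0.764 RPKM in any library. Of the dendritic cell markers 5 of 8 had a value and none exceeded 10 RPKM, the highest being Zbtb46 at 7.88 RPKM in MEF. Fibroblast markers were all above 10 RPKM in every library. Of the 6, 5 were lower in Dox (+) than in Dox (-), 3 of them called, beside 5.41% over all genes, and 1 was higher. Against MEF, 3 were higher in Dox (+), 2 of them called, beside 6.55% over all genes, and 3 were lower. Col1a1, whose locus holds the transgene in the knock-in cells, stood at 4958 RPKM in MEF, 12562 in Dox (-) and 2301 in Dox (+). Of the 7 melanocyte markers, which include Mitf itself, 6 were higher and 1 was lower in Dox (+) than in Dox (-). Among the 4 above 10 RPKM, 3 were called higher and 0 lower, beside 1.64% and 5.41% over all genes. Mlana stood at 0.585 RPKM in MEF, 0.390 in Dox (-) and 133 in Dox (+).

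Interferon-stimulated genes were highest in Dox (-), like H2-Eb1 and Psmb8. All 10 were lower in Dox (+) than in Dox (-), 6 of them called, beside 5.41% over all genes. Their median log2 fold change was -1.97, against 0.23 over all genes above 10 RPKM. All 10 were higher in Dox (-) than in MEF, 4 of them called, beside 8.26% over all genes. Oas1a, an antiviral enzyme, stood at 11.5 RPKM in MEF, 141 in Dox (-) and 41.2 in Dox (+). Ifng, encoding interferon gamma, was at 0 in all 3 libraries.

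Genes of molecules that signal to T cells beside the MHC, costimulatory or inhibitory, were mixed. The highest level among the 5 listed genes was 38.2 RPKM in MEF, 55.9 in Dox (-) and 39.6 in Dox (+). The MEF and Dox (-) values belong to a gene not named here. Cd86 was listed at 0 in MEF and stood at 18.2 RPKM in Dox (-) and 1.66 in Dox (+), highest where the macrophage markers were. Cd40 stood at 0.370, 23.1 and 15.2 RPKM and Icam1 at 5.53, 45.1 and 39.6 RPKM, high in both knock-in libraries. Cd274, the inhibitory ligand PD-L1, was highest in Dox (+), at 0.741, 5.19 and 10.6 RPKM.

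**Figure D5:**
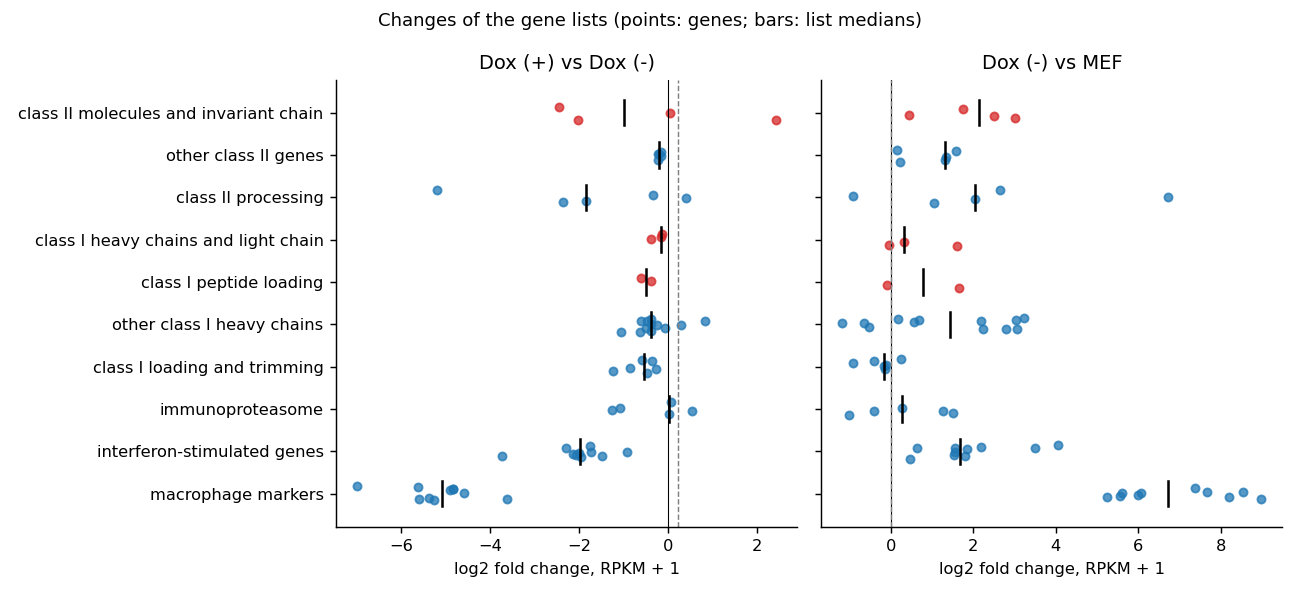
Log2 fold change (RPKM + 1) of each gene of 10 lists, members in red and other lists in blue, with black bars at list medians and a dashed line at the median of all genes above 10 RPKM. Macrophage markers (median -5.10 for Dox (+) against Dox (-) and 6.73 for Dox (-) against MEF) lie farthest from it in both panels, and the class II members fall on both sides in the left panel.

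Promoters of the members were searched in RefSeq windows of GRCm38.p6, from 250 bases before to 50 after the start, for letters known from MHC promoters. Of the 10 members 7 had a window, and H2-Ab1, Cd74 and Ciita had none. Both strands were searched for ATTGG (Y box, bound by NF-Y, in 37.4% of all 32851 windows), GCAAC (part of the X box, 35.2%), TGACG (part of the X2 box, 20.8%), the interferon response element (a pair of GAAA with any 2 bases between them, 3.44%) and the palindromic NF-kB site known from class I promoters (0.0852%), whose letters are the capitals of the H2-K1 stretch. A match describes letters and not binding. The stretches are shown for the matches they hold, which are in capitals. They lie at chr17:34287857-34287918 (minus strand) for H2-Aa, chr17:34305762-34305842 (plus) for H2-Eb1, chr2:122147537-122147647 (plus) for B2m, chr17:34000439-34000468 (minus) for H2-K1 and chr17:35262913-35262942 (plus) for H2-D1.
H2-Aa: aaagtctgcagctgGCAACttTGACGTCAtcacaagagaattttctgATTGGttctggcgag
H2-Eb1: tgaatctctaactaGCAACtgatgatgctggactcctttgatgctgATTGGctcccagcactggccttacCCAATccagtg
B2m: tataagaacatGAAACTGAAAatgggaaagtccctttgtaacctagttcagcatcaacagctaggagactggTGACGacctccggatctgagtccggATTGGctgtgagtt
H2-K1: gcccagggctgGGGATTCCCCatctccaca
H2-D1: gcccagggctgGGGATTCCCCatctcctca

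H2-Aa held the X box, X2 box and Y box letters at 81, 74 and 48 bases before its start, with a second X2 match on the opposite strand that overlaps the first. H2-Eb1 held the X box letters at 91 and the Y box letters at 59 bases before its start, and no X2 match. The class I members Tap1 and H2-D1 also held matches to the X box, X2 box and Y box letters. Of these genes with the X and Y box letters, H2-Aa had at most 4 reads on an exon in every library. Of the 7 members with a window, only B2m matched the searched letters of the interferon response element, at 139 bases before its start. Other forms of this element were not searched, so the other members may hold them. B2m was within 1.13-fold across the 3 libraries at its level, and the part of the element in this was not tested. Among the same members, only H2-K1 and H2-D1 held the NF-kB site, which was found in 28 windows in all. The 110 bases from 11 before this site to the Y box beyond it were identical in H2-K1 and H2-D1 at 99 positions (90.0%). Their levels differed between Dox (-) and MEF by 1.24-fold for H2-K1 and 3.04-fold for H2-D1.

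The genes with the most similar profiles over the 3 libraries were found by the distance between centred log2 levels. Nearest to the mean of the class II chains and Cd74 were Ebf2, Trpm5, Zfp871, Sash1 and Hist1h2bp, at distances from 0.022 to 0.066 log2 units. Nearest to the mean of the class I members were Prkd3, Ctsz, Golga7, Fam129c and Dedd2, at 0.0086 to 0.028. With 3 points per profile such closeness describes only an order of levels, and the class II mean joins genes of opposite direction.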

How the data were processed

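The authors sequenced poly(A)-selected RNA, aligned the reads to mm10 with TopHat2 2.0.10, used bedtools for exon coverage, and deposited exon-level RPKM. Strand use and the choice of listed exons are not given in the sources used here. Columns were matched to libraries by name, and 1 column that matched no label was left unused, so PMel was not analysed here and the planned comparisons with it were not run. For MEF the values differ from those in a supplementary table of the study.

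Of 234718 exon identifiers, 228132 matched GENCODE M21; protein-coding genes, lincRNAs and pseudogenes were kept. Ifi30, H2-Ea-ps and H2-Eb2 of the pathway lists had no value under this filter. Reads were recovered with a whole-number divisor per library (45000000 for MEF, 45000000 for Dox (-), 44000000 for Dox (+)), and 97.2% to 97.4% of values below 200 reads came out within 0.05 of a whole number. Gene levels were the highest exon RPKM, differences needed more than 10 RPKM and more than 4-fold, and log2 fold changes used a pseudocount of 1. Intervals are exact (Clopper-Pearson, 95%) for the share of reads. The steps were tested on simulated data and run in Python 3.11.15 with SciPy 1.17.1. Named genes were the members, listed genes called in a comparison, Mitf and the 5 nearest profiles of each class; others were named after their values were seen. Members and lists were chosen with earlier results of these data known.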

Additional observations from a re-analysis of the deposited data

How the results depend on the processing

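No paired analysis was possible because each condition had 1 library. Leaving out a library was not possible for the same reason, and the planned comparisons with PMel were not run. For Dox (+) against Dox (-), the 2 members called became 4 with an expression threshold of 1 RPKM (Cd74 and Ciita added as lower), and 1 with a threshold of 30 RPKM, a pseudocount of 5 RPKM, reads summed over exons, or exons of at least 100 bp (an alternative chosen after seeing the data), each of which kept H2-Ab1 and lost H2-Eb1. A threshold of 8-fold left 1, H2-Eb1. The 1 pathway gene called became 2 at 1 RPKM, 8 at 2-fold (all lower, of 42) and 2 with rescaled libraries. Over all genes, 1439 were called higher and 1471 lower of 13307 at 2-fold. At 1 RPKM these were 478 and 1448 of 17440, and at 8-fold 92 and 415 of 13307. For Dox (-) against MEF, the 1 member called became 3 at 1 RPKM, 3 at 2-fold, and 0 at 30 RPKM, with a pseudocount of 5 RPKM, with summed reads or with exons of at least 100 bp. The 8 pathway genes became 16 at 2-fold (14 higher and 2 lower, of 41) and 4 at 8-fold. Over all genes, 2285 were called higher and 1049 lower of 13234 at 2-fold. At 8-fold these were 718 and 77 of 13234, and at 1 RPKM 2236 and 354 of 17338. For Dox (+) against MEF, the 1 member called became 2 at 1 RPKM and 3 at 2-fold. The 4 pathway genes became 17 at 2-fold (13 higher and 4 lower, of 40) and 0 at 8-fold. Over all genes, 2614 were called higher and 1162 lower of 12941 at 2-fold. At 8-fold these were 436 and 213 of 12941, and at 1 RPKM 1748 and 814 of 16865. Of 210 member log2 fold changes under alternatives, 177 stayed within an approximate counting error of the main value and 33 moved beyond it. None of a called member changed sign. This error is wide where reads are few, so staying within it does not show stability. H2-Eb1 in Dox (+) against Dox (-) stayed within it while going from -2.45 to -0.74 with summed reads. A change of sign was found in 12 of the 210, in 6 members not called there. With summed reads, H2-K1 turned to 0.35 and H2-D1 to 0.017 in Dox (+) against Dox (-), and H2-K1 to -0.021 and B2m to 0.025 in Dox (-) against MEF. With rescaled libraries H2-K1 turned to -0.10 in Dox (+) against MEF. The others were in H2-Aa, Cd74, and, with exons of at least 100 bp, H2-K1, B2m and Tapbp. At this depth 3 reads on an exon of 150 bases are 0.444 to 0.455 RPKM, so H2-Aa and Ciita are limited by depth.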
